A study of Mus musculus with 4 samples.

Results

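The regions described here are stretches of open chromatin that both control libraries held among their strongest ATAC-Seq peaks and that neither Cpt1a-KO library held among its own. ATAC-Seq cuts accessible DNA with the Tn5 transposase, and stretches with many cut ends are called as peaks. In each of 4 peak lists, from 2 control and 2 KO libraries, the 100000 peak summits of highest −log10 p on the autosomes and X were kept, and kept intervals that overlapped by at least 1 bp were merged. This gave 73863 regions, of which 1631 (2.21%) had a kept peak in both controls and in neither KO library. These control-only regions were chosen by the ranks of their peaks in all 4 libraries, so their ranks, scores and folds are given as a description, with no test. The mirror set, kept in both KO libraries and neither control, held 1841 regions, and 42727 regions were kept in all 4 libraries.

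The cells were sorted from mouse bone marrow. The labels call them long-term HSCs, the study's text calls them HSPCs, and no marker gene can be checked in them, since the lists hold chromatin peaks and no expression. The control animals are labelled WT, and in the study's methods they are Cpt1a fl/fl mice, in which the Cpt1a gene is flanked by loxP sites. The KO animals (Cpt1a Δ/Δ) are Cpt1a fl/fl mice crossed with Vav1-Cre+ mice, whose Cre is active throughout the blood system, so other blood cells lack Cpt1a as well. Both genotypes were on a C57BL/6, CD45.2 background, and the study used adult animals of both sexes unless it stated otherwise. Both were treated alike, with normal chow and cryopreservation of the sorted cells. No label says whether the libraries of a genotype came from separate animals, so their spread may be technical. With 2 libraries against 2, an exact two-sided permutation test over libraries can give no p below 0.333, and no difference between the genotypes can pass 0.05. The lists give no read counts, so the depth of each library is unknown, and lists of equal length need not be lists of equal depth. The weakest kept summit had a −log10 p of 9.04 in control 1, 9.46 in control 2, 8.0 in KO 1 and 6.32 in KO 2. A region therefore needed a lower score to be kept in KO 2 than in any other library.

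CPT1A, the product of Cpt1a, joins long-chain fatty acids to carnitine so that they can enter mitochondria, and this is the rate-limiting step of fatty acid oxidation. Open chromatin in blood stem and progenitor cells marks promoters, where transcription begins, and distal elements such as enhancers, which are bound by transcription factors. PU.1, RUNX1 and GATA2 are among the factors known for this role in these cells. Many promoters of widely used genes are rich in CpG, a C followed by a G, and tend to be open in most cell types, while promoters of genes used by few cell types are often poor in CpG.

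Control-only regions overlapped the promoters of 61 genes. The 250 bases before the start of 5 of them are printed from RefSeq's promoter windows on GRCm38.p6, to show the sequence under such regions. The 5 were picked by hand and do not stand for the rest. Ptpn6, Pou2f2 and Btk were taken from the 10 coding promoters with the best rank in the weaker control, and S100a8 and Ltf because they are on the gene lists used further on. Ptpn6 encodes the phosphatase SHP-1, a brake on signaling in blood cells. Pou2f2 encodes Oct-2, a transcription factor of B lymphocytes, and Btk a kinase of the B cell receptor pathway. S100a8 encodes a subunit of calprotectin, and Ltf encodes lactoferrin of neutrophil granules. Capitals mark matches to GGAAGT, the core bound by ETS factors such as PU.1, and to TGTGGT, a core bound by RUNX factors, on either strand. The longer PU.1-type site GAGGAAGT contains the ETS core and is capitalized over its whole length.

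Ptpn6, chr6:124738710-124738959, minus strand: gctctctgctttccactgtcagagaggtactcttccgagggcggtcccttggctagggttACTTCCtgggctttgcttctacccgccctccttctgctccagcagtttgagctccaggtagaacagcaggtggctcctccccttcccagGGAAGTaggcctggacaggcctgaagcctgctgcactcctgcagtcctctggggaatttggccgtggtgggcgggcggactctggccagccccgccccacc
Pou2f2, chr7:25132461-25132710, minus strand: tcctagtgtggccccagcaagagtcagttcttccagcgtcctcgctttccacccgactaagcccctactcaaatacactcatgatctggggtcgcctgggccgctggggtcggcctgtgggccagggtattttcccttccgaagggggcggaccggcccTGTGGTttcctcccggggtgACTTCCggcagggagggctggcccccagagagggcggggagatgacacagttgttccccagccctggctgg
Btk, chrX:134583141-134583390, minus strand: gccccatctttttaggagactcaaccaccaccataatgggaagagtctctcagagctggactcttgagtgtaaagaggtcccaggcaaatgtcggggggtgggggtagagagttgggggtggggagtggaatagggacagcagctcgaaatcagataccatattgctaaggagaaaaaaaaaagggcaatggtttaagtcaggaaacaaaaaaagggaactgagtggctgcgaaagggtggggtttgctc
S100a8, chr3:90668821-90669070, plus strand: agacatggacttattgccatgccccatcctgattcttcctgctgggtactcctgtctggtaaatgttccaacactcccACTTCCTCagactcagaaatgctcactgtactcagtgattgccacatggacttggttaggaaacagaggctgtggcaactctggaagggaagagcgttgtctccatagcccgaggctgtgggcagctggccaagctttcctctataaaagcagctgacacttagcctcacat
Ltf, chr9:111019042-111019291, plus strand: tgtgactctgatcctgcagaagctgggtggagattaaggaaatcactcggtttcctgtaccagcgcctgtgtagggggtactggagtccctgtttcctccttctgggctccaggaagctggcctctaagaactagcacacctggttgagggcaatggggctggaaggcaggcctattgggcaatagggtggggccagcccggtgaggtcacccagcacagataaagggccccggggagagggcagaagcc

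The control-only region covered 195 of these bases at Ptpn6 and all 250 at the other 4 genes. The Ptpn6 sequence held 2 ETS cores, the Pou2f2 sequence 1 ETS core and 1 RUNX core, and the S100a8 sequence 1 ETS core within a PU.1-type site. The printed bases of Btk and Ltf held neither. The number of CpG in the 250 bases was 7 at Ptpn6, 12 at Pou2f2, 3 at Btk, 2 at S100a8 and 4 at Ltf. A match is a run of letters and not a shown binding site.

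At the Ptpn6 promoter, the best peak had a fold over the background of its own library of 3.32 in control 1, 3.45 in control 2, 1.84 in KO 1 and 2.56 in KO 2. At the Pou2f2 promoter the folds were 4.65, 5.17, 3.19 and 2.64 in the same order. At the Btk promoter they were 4.64, 4.64, 2.95 and 3.43. Each of these regions kept a called peak in every library. The controls lay above the KO libraries, which the choice of the regions sets. The same held in 1609 of the 1610 control-only regions with a KO peak. In Ptpn6 the KO libraries differed from each other about as much as KO 2 from control 1. The S100a8 promoter had folds of 7.99 and 5.51 in the controls against 3.58 and 4.34 in the KO libraries. The Ltf promoter had 5.08 and 5.99 in the controls against 4.56 and 4.39, the smallest separation of the 5. These folds belong to the best peak of the whole region, whose summit can lie outside the printed bases. In bases from the start, it was at -304 in KO 2 at Pou2f2, 114 in KO 1 at Ptpn6 and -451 in control 1 at Ltf.

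**Figure D1:**
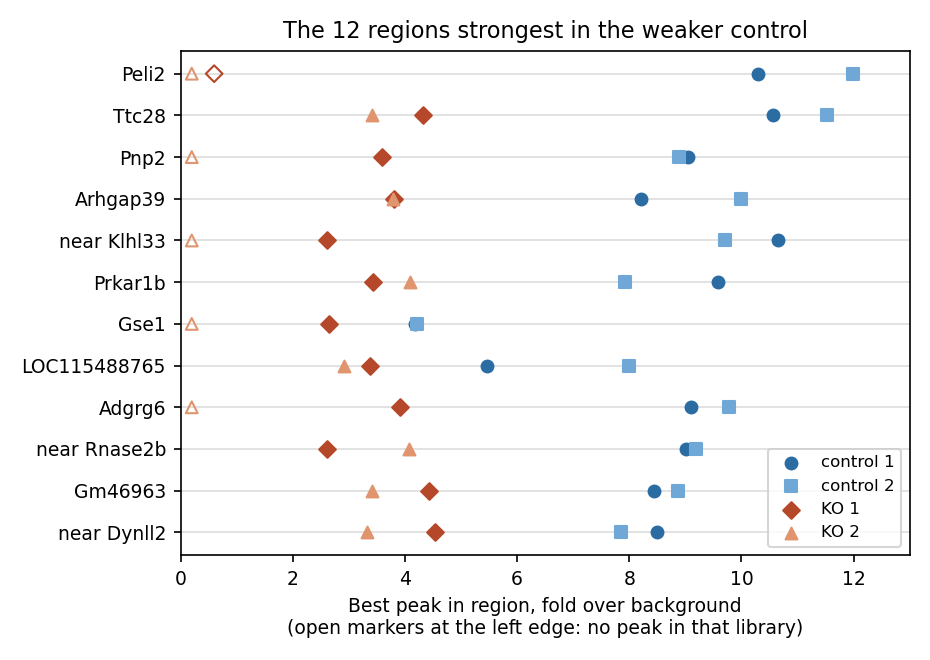
Fold over background of the best peak in each library (x axis) for the 12 control-only regions whose rank in the weaker control was best (y axis, named by the gene they overlap or lie nearest to). Filled circles and squares are the controls, diamonds and triangles the KO libraries, and open markers at the left edge stand for no called peak. In all 12 regions both controls lie to the right of both KO libraries, at folds of 4.17 to 11.98 against 2.61 to 4.53. The choice of the regions by rank largely sets this order.

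The strongest control-only region lay inside Peli2, an E3 ubiquitin ligase gene of the Toll-like receptor and interleukin-1 pathways, on chromosome 14 from 48202111 to 48203004 (mm10). It measured 894 bp and lay 81242 bp from the nearest listed start of a coding gene, that of Peli2 itself. The fold was 10.3 in control 1 and 11.98 in control 2, with a −log10 p of 39.9 and 52.2. No peak of any score was called there in either KO library. It was the only one of the 12 strongest regions without a KO peak. The others had a peak in both KO libraries in 7 cases and in KO 1 alone in 4.

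The second region lay in Ttc28, which encodes a tetratricopeptide repeat protein. Its folds were 10.6 and 11.5 in the controls against 4.32 and 3.41 in the KO libraries. The third covered an end of Pnp2 (chromosome 14, 50955614 to 50956690), a gene for a purine nucleoside phosphorylase, which frees bases from purine nucleosides. Its folds were 9.04 and 8.88 in the controls and 3.58 in KO 1, with no peak in KO 2. Pnp2 has a close copy, Pnp, beside it, and how reads that fit both were placed is not given in the sources used here. In Arhgap39 the folds were 8.21 and 9.99 against 3.81 and 3.79. A region 6462 bp from Klhl33, a kelch-like gene, had 10.7 and 9.70 in the controls, 2.61 in KO 1 and no peak in KO 2. In these regions the controls stood at 2 or more times the KO fold wherever a KO peak was called.

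Prkar1b, a regulatory subunit gene of protein kinase A, had folds of 9.58 and 7.93 against 3.42 and 4.09. Adgrg6, an adhesion G protein-coupled receptor gene, had 9.10 and 9.79 against 3.91 in KO 1 and no peak in KO 2. Gse1 had the lowest control folds of the 12, at 4.17 and 4.22 in the controls and 2.65 in KO 1. Its rank came from a −log10 p of 22.7 and 23.9 in the controls, against 6.79 in KO 1. The remaining 4 lay in the predicted genes LOC115488765 and Gm46963, 13325 bp from Rnase2b, a ribonuclease gene of the eosinophil-associated family, and 8692 bp from Dynll2, a dynein light chain gene. Of the 12 regions, 4 (at Peli2, Pnp2, Klhl33 and Rnase2b) lay on chromosome 14 between 48 and 54 Mb. That stretch, picked after its values were seen, held 16 control-only regions among 238 regions (6.72%, against 2.21% of all regions) and 6 of the mirror set. It includes most of the T cell receptor alpha locus (52427967 to 54224198), which is counted again further on.

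**Figure D2:**
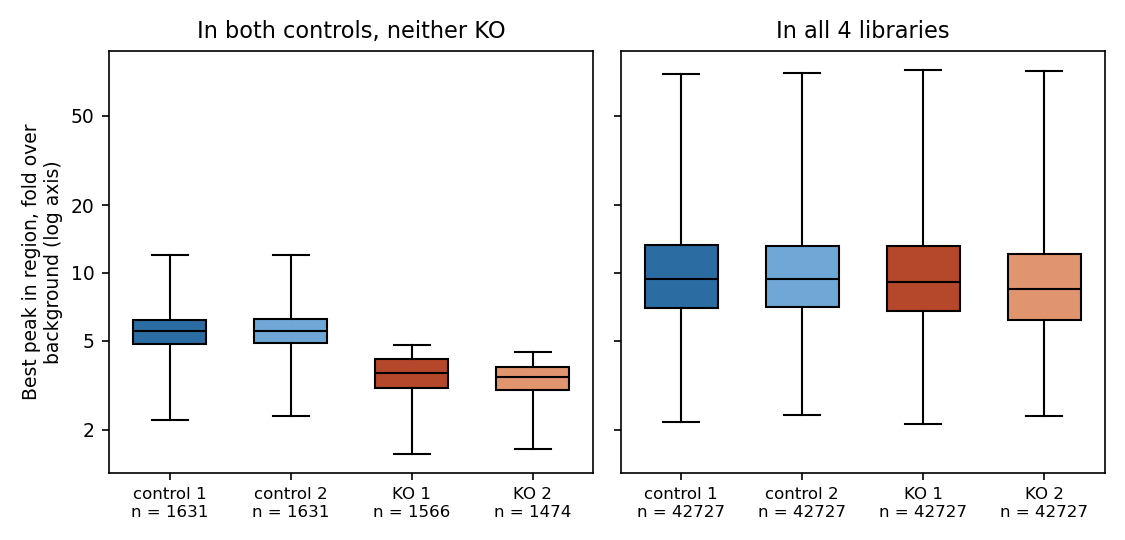
Fold over background of the best peak per region and library (y axis, log scale), for the control-only regions (left) and the regions kept in all 4 libraries (right). Boxes span the quartiles with the median as a line, whiskers reach the lowest and highest value, and n counts the regions with a called peak. The control-only regions sit below the shared regions in every library, with control medians of 5.52 and 5.503 and KO medians of 3.58 and 3.44.

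Over all control-only regions, the fold ran from 2.21 to 12.03 in control 1, with a median of 5.52, and from 2.32 to 11.98 in control 2, with a median of 5.503. Where a peak was called it ran from 1.57 to 4.76 in KO 1, with a median of 3.58, and from 1.64 to 4.43 in KO 2, with a median of 3.44. The regions kept in all 4 libraries had medians of 9.42, 9.43, 9.15 and 8.45, so the control-only regions were weak peaks in the controls as well. In 1609 of the 1610 regions with a KO peak, the lower control fold was above the higher KO fold, and the median ratio of these values was 1.35. The ratio was under 1.5 in 1197 regions and over 2 in 31. The separation is set by the choice of the regions, while its size is small in most of them.

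**Figure D3:**
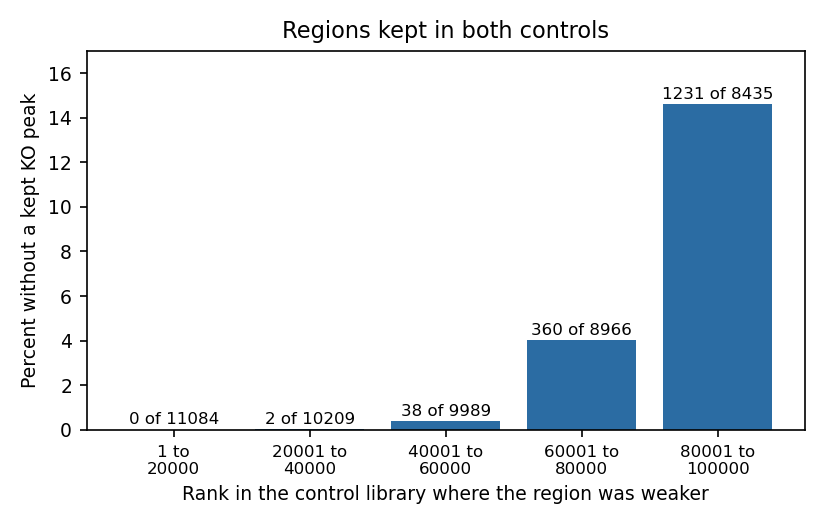
Percent of the regions kept in both controls that had no kept peak in either KO library (y axis), by the rank of the region in the control where it was weaker (x axis, 1 is strongest). Numbers over the bars give the control-only regions and all regions kept in both controls. The bars rise from 0 of 11084 among the strongest regions to 1231 of 8435 (14.6%) among the weakest.

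Of the 48683 regions kept in both controls, 1631 (3.35%) were control-only, and nearly all of these ranked low. None of the 11084 regions within the first 20000 ranks of both controls was control-only, and 2 of the 10209 with a weaker rank from there to 40000 were, those in Peli2 and Ttc28. The share was 0.380% (38 regions) up to rank 60000, 4.02% (360) up to 80000 and 14.6% (1231) up to 100000. In 738 control-only regions (45.2%) the weaker control ranked beyond 90000, close to the limit of the kept lists.

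The regions just inside the limit show how narrow the choice was. In Sema4a, a semaphorin gene of immune cells, the ranks were 99894 and 98114 in the controls against 139669 and 101748 in the KO libraries. The region nearest to Sf3b1, a splicing factor gene, ranked 78145 and 99998 in the controls and 104342 in KO 2, with no peak in KO 1. The other 3 lay in M1ap and closest to Rgs9 and Slc39a9, with weaker control ranks from 99895 to 99948. Just outside, a region in Zmiz1, a transcriptional coregulator gene, ranked 81585 and 76316 in the controls and 105546 in KO 2, and was left out because KO 1 ranked it 99982. A region in Agap1 was left out because control 2 ranked it 100004, and regions in Clmp, Ccdc57 and Cryzl1 missed by margins as small. KO 1 alone kept 2383 further regions out of the set and KO 2 alone 1942, while control 1 alone kept out 2922 and control 2 alone 2771. Each of these counts exceeds the 1631 regions that passed.

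**Figure D4:**
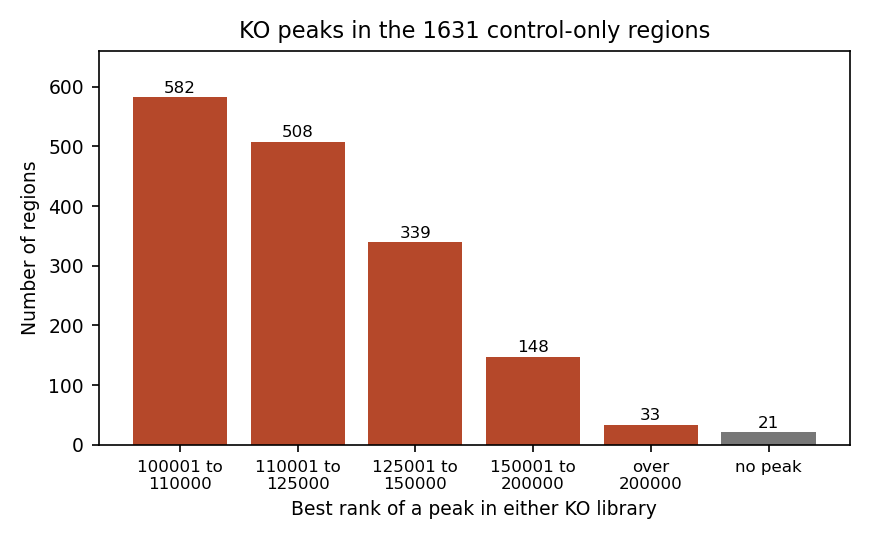
Number of control-only regions (y axis) by the best rank of a called peak in either KO library (x axis). The grey bar counts regions with no called peak in either. The count falls from 582 regions with a KO peak within 10000 ranks of the limit to 33 beyond rank 200000 and 21 without a peak.

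Almost every control-only region still had a weaker peak in KO cells. A peak below the kept ranks was called in both KO libraries in 1430 regions (87.7%, 95% exact binomial interval 86.0 to 89.2), in KO 1 alone in 136 and in KO 2 alone in 44. At least 1 KO library had a peak in 1610 regions (98.7%, 98.0 to 99.2), and neither had one in 21 (1.29%, 0.799 to 1.96). These intervals cover counting error over regions only, and regions are not replicates of a genotype. KO 1 had a peak in 1566 regions and KO 2 in 1474, beside 266230 and 240940 summits in their whole lists. The mirror set gave nearly the same picture, with a weaker control peak in 1821 of 1841 regions (98.9%, 98.3 to 99.3). The best KO rank was within 10000 ranks of the limit in 582 control-only regions (35.7%), within 25000 ranks in a further 508 and beyond rank 200000 in 33. Of the 1430 regions with a peak in both KO libraries, 863 had a −log10 q of 2 or more in both. No such count is given for the mirror set, so this number has no background beside it. A median of 31052 ranks lay between the weaker control and the better KO library.

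Most KO summits lay close to the control summits, though less close than in regions kept in all 4 libraries. A KO peak was counted only where it overlapped the region, which limits the distance. The best summits of the controls lay a median of 16 bp apart, and 79.3% of pairs were within 50 bp. Between a control and a KO library the median was 24 to 30 bp, with 63.0 to 68.2% within 50 bp. The summits of KO 1 and KO 2 lay 41 bp apart, with 56.6% within 50 bp, so the weaker peaks were placed less closely between the KO libraries than the stronger ones between the controls. In the mirror set the order was the other way, with 18 bp between the KO libraries and 23 bp between the controls. In regions kept in all 4 libraries, every pair of libraries had a median of 10 to 13 bp.

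The 21 regions without any KO peak were mostly weak and narrow, and the genes named from them were picked after their values were seen. Their median width was 272 bp, 18 of them ranked beyond 75000 in the weaker control, and 8 lay within 1000 bp of a region kept in all 4 libraries. Of all regions, 10.6% lay that close to one. Beside the region in Peli2, a 192 bp region in Chd8, a chromatin remodeler gene, had folds of 5.47 in control 1 and 5.04 in control 2. That region lay 460 bp from a region kept in all 4 libraries. Its nearest listed coding start, 985 bp away, was that of Supt16. A region in Inpp5d, which encodes the phosphatase SHIP-1 of blood cells, had 3.22 and 4.28 and lay 955 bp from the start of the gene. It was also 336 bp from a region kept in all 4 libraries. A region 18616 bp from Pou2af1, which encodes a B cell coactivator of Oct factors, had 6.82 and 5.63, with no shared region closer than 32555 bp. The T cell receptor alpha locus held 2 of the 21, with 7.47 and 8.30 in the controls at the first and 7.85 and 5.51 at the second. Chromosome 14 held 5 of the 21, beside 2863 of all 73863 regions. A coding gene overlapped 13 of the 21, beside 61.3% of all regions.

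Control-only regions had a median width of 393 bp, with quartiles of 267.5 and 551.5 bp. They were narrower than the regions kept in all 4 libraries, with a median of 709 bp, and wider than the mirror set, with 233 bp. The widest measured 1219 bp and lay in Nuak1, a kinase gene, and the narrowest measured 97 bp and had Chordc1 as its nearest coding gene, 304402 bp away. The difference from the mirror set runs alongside a difference between the lists. The kept intervals had median widths of 497 and 474 bp in the controls and of 312 and 372 bp in the KO libraries, and the part of this in the width of control-only regions was not tested. Within control-only regions the best interval had a median of 322 bp in control 1, 314 bp in control 2, 192 bp in KO 1 and 198.5 bp in KO 2.

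Control-only regions lay in genes about as often as the mirror set and were rare at gene starts. A gene of any kind overlapped 1067 of them (65.4%, interval 63.1 to 67.7), against 65.5% of the mirror set, 73.6% of regions kept in all 4 libraries and 70.4% of all regions. A coding gene overlapped 917 (56.2%), another 159 (9.75%) lay within 5000 bp of one, and 555 (34.0%) lay farther away. Over all regions these shares were 61.3%, 8.65% and 30.0%. The farthest had Pcdh18, a protocadherin gene, as its nearest coding gene, 1642133 bp away. A coding start from the promoter table lay inside 34 of the 1569 control-only regions that could be measured (2.17%, 1.51 to 3.02), against 3.79% of the mirror set and 22.7% of regions kept in all 4 libraries. The share over all regions was 14.3%. The median distance to the nearest such start was 27280 bp, shorter than the 37224 bp of the mirror set and longer than the 16458.5 bp of the regions kept in all 4. Over all regions this median was 21863 bp. Starts more than 100 kb away accounted for 19.3% of control-only regions (17.4 to 21.4), near the 18.1% of all regions. The mirror set had 27.8% (25.8 to 30.0). These intervals, too, cover counting error over regions only, and neighboring regions are not independent.

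Control-only regions lay closer to shared open chromatin than the mirror set. The nearest region kept in all 4 libraries was a median of 6811 bp away, against 13506 bp in the mirror set and 8768 bp over all regions. It was within 5000 bp of 692 control-only regions (42.4%, 40.01 to 44.9), of 26.2% (24.2 to 28.3) of the mirror set and of 33.1% of all regions. Within 1000 bp these shares were 14.4%, 8.26% and 10.6%. The wider intervals of the controls run alongside this difference too, and their part in it was not tested.

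**Figure D5:**
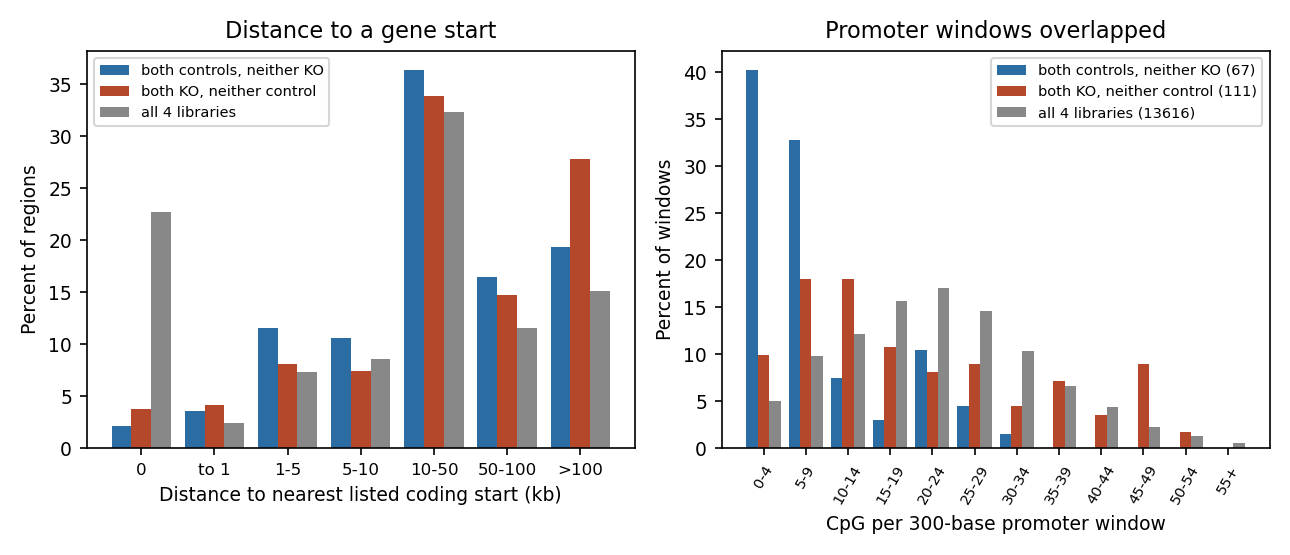
Left, percent of regions (y axis) by distance to the nearest coding start of the promoter table (x axis, kb; 0 means that the region holds the start). Right, percent of the promoter windows overlapped (y axis) by the number of CpG in the window (x axis), with the number of windows in parentheses. Control-only regions (blue) hold a start in 2.17% of cases, and 26.9% of the windows they overlap have 10 or more CpG, against 72.1% for the mirror set (red) and 85.1% for regions kept in all 4 libraries (grey).

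Where control-only regions did reach a promoter, it was usually poor in CpG. A promoter window here is the 300 bases from 250 before to 50 after a gene's start, and 61 control-only regions overlapped 67 windows of 61 genes. Their median was 5 CpG per window, with quartiles of 3 and 13.5, and 18 of the 67 (26.9%) had 10 or more. The 111 windows of the mirror set had a median of 17 CpG, with 72.1% at 10 or more. The 13616 windows of regions kept in all 4 libraries had a median of 22, with 85.1%, and all 32619 windows of the table a median of 7, with 43.8%. The share of G and C was also lowest in control-only windows, with medians of 53.0%, 62.7% and 62.0% in the 3 sets and 53.0% over all windows. CpG content was not used to choose the regions. Both windows of a gene with close starts are counted, so windows are not independent.

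Motif letters were searched on both strands of the 300 bases. The ETS core GGAAGT was in 26 of the 67 control-only windows (38.8%), against 16.2% in the mirror set, 28.3% in regions kept in all 4 libraries and 23.9% of all windows. GAGGAAGT was in 5 (7.46%), against 1.80%, 3.24% and 3.22%. The RUNX core TGTGGT was in 21 (31.3%), against 11.7%, 12.2% and 16.6%. The GC box GGGCGG, common in CpG-rich promoters, went the other way, with 17 windows (25.4%) against 62.2%, 66.2% and 35.9%. CCAAT was in 25.4% of control-only windows and 37.6% of all, the E-box CAGCTG in 19.4% and 16.4%, the GATA letters AGATAA in 11.9% and 11.2%, and the AP-1 letters TGANTCA in 5.97% and 7.85%. The C/EBP-type letters TTGCGCAA were in 0 control-only windows and in 0.184% of all. With 67 windows that differ from the others in CpG, these shares are a description of their letters. The distal control-only regions, which are most of the set, could not be searched, since no genome sequence was used here.

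Beside Ptpn6, Pou2f2 and Btk, the 10 promoters of coding genes with the best rank in the weaker control were those of Serpina3f, Tmem150b, Orm3, Sfn, Emilin2, Psd and Ppp1r36. Serpina3f encodes a serine protease inhibitor and had folds of 6.95 and 7.94 in the controls against 3.91 and 3.88 in the KO libraries. Orm3, an orosomucoid gene of the acute-phase family, had 6.12 and 5.70 against 3.63 and 3.42. Emilin2, which encodes an extracellular matrix glycoprotein, had 5.20 and 5.21 against 3.65 and 3.88. In these 3 regions, too, a peak was called in every library. The controls lay above the KO libraries, as the choice of the regions sets in nearly all of them. The Emilin2 summits lay outside the promoter window in every library, at -454 to -406 bases from the nearer start.

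Control-only regions were found on every chromosome analyzed. Their share ran from 1.92% on chromosomes 2 and 4 to 2.82% (62 of 2199) on chromosome 18, and the binomial interval of each of the 20 chromosomes held the genome-wide 2.21%. The X chromosome had 30 of 1417 (2.12%). Chromosome 11 had the most, 126 of 5565, but its share of 2.26% was near that of all regions. It was 1 of 3 chromosomes with more control-only regions than mirror regions. Its mirror share was 1.64%, against 2.49% over all regions. Few lay close together. Of 1611 pairs of neighbors on a chromosome, 5 were within 1 kb, 32 within 10 kb and 251 within 100 kb, and the median spacing was 597808 bp. The fullest 1 Mb window, on chromosome 11 from 69 to 70 Mb, held 8 of them among 129 regions, and a window on chromosome 19 from 46 to 47 Mb held 7 of 95.

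Most genes with a control-only region had a single one. Counting regions in a gene or within 5000 bp of it, 1180 of the 17130 coding genes with any region (6.89%) had a control-only region. Of these, 1088 had 1, 85 had 2 and 7 had 3. The mirror set touched 1188 genes (6.94%), and 151 genes had both kinds. Genes with a control-only region were long and held many regions, with medians of 46.7 kb and 5 regions, against 22.3 kb and 3 regions over all genes with a region. The 7 genes with 3 control-only regions were Akap13 (of 26 regions), Ankrd11 (of 22), Crtc3 (of 12), Gse1 (of 57), Ppp3ca (of 17), Pxn (of 16) and Sufu (of 12). Ablim1, an actin-binding LIM protein gene and the first by name of those with 2, had 29 regions in all.

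Values are given for 4 of these genes, picked after they were seen. Crtc3 encodes a coactivator of CREB, and its 3 regions had control folds of 4.09 to 8.62 against 2.86 to 4.52 in the KO libraries. Sufu, a negative regulator of Hedgehog signaling, had 5.02 to 7.52 against 2.56 to 4.19. Ppp3ca encodes the catalytic subunit of calcineurin and had 5.20 to 7.12 against 3.26 to 4.07, with 1 KO 2 peak missing. Pxn encodes the focal adhesion protein paxillin and had 2.62 to 5.48 against 2.09 to 3.35. Sufu, Crtc3, Ppp3ca, Pxn and Ankrd11 had 0 regions of the mirror set, while Akap13 had 2 and Gse1 1. The antigen receptor loci, which are not coding genes in the table, are given separately. The T cell receptor alpha locus held 9 control-only regions of 106 (8.49%, against 2.21% of all regions) and 1 of the mirror set, and the immunoglobulin heavy chain locus held 3 of 72 and 6. Most of the T cell receptor alpha locus lies in the stretch of chromosome 14 from 48 to 54 Mb given above, so those counts share regions. These loci are long and rearranged in lymphocytes.

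The lists were counted in the same way, with regions in a gene or within 5000 bp of it, so neighboring genes can share a region. Over 12 gene lists chosen with earlier results of these data known, the share of a list's regions that were control-only ran from 0.847% to 4.04%. The binomial interval of every list held the 2.21% of all regions, but the lists have few regions and the intervals are wide. For fatty acid oxidation genes the interval ran from 0.0215 to 4.63%, and for mast cell and basophil genes from 0.0744 to 15.3%. Intervals this wide cannot show that a list matches the share of all regions. Of 24 stem cell regulator genes with a region, 3 had a control-only region (4 of 182 regions, 2.20%), namely Mecom, Myb and Etv6. Mecom encodes EVI1, a transcription factor needed by HSCs. Its first region had folds of 5.85 and 5.64 in the controls against 3.11 and 3.13, and its second 5.32 and 5.34 against 3.91 and 4.07. Myb, a transcription factor gene of progenitor proliferation, had 5.84 and 4.69 against 3.37 and 2.75. Etv6, an ETS repressor gene of HSC maintenance, had 5.95 and 4.76 against 3.51 and 3.15. In Mecom the controls lay close together, while in Myb and Etv6 they differed from each other by more than the KO libraries did. A weaker peak was called in both KO libraries in each of these 4 regions.

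Of 26 myeloid genes, 4 had a control-only region (4 of 99 regions, 4.04%). Beside S100a8 and Ltf these were Cebpb, a transcription factor gene of emergency granulopoiesis, with 3.67 and 3.28 against 2.29 and 2.71, and Fcer1g, a signaling subunit gene of Fc receptors, with 4.44 and 4.82 against 3.42 and 3.17. Lymphoid genes had 2 of 133 regions (1.504%), in Satb1 and 1001 bp from Tcf7. Erythroid and megakaryocyte genes had 2 of 63, in Zfpm1, which encodes the GATA cofactor FOG1, and within 5000 bp of Slc25a37, which encodes an iron carrier of mitochondria, but nearer to Synb. Mast cell and basophil genes had 1 of 34, which lay within 5000 bp of Il1rl1, the interleukin-33 receptor gene, and overlapped its neighbor Il18r1.

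Innate signaling genes had 5 control-only regions of 140 (3.57%), at Peli2, Irak2, Nfkb1 and Nfkb2. Irak2, a kinase gene downstream of Toll-like receptors, had 4.00 and 6.21 against 2.93 and 2.71. The region counted for Nfkb2, an NF-kappa-B subunit gene, overlapped its neighbor Psd and had 3.85 and 3.98 against 2.85 and 2.92. The mirror set had 7 regions on this list.

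Among metabolic lists, fatty acid oxidation had the lowest share, with 1 of 118 regions (0.847%). It lay in Pparg, a lipid-sensing nuclear receptor gene, with folds of 5.20 and 6.23 in the controls against 4.24 and 4.07. Fatty acid uptake, activation and synthesis had 1 of 106, in the elongase gene Elovl5, with 4.83 and 4.96 against 3.83 and 4.06. Glucose use and pyruvate genes had 4 of 99 (4.04%), in the glucose transporter genes Slc2a1 and Slc2a3 and the hexokinase gene Hk3, and 1 that overlapped Senp1 and lay 2533 bp from a start of the phosphofructokinase gene Pfkm. Slc2a1 had 6.81 and 4.71 against 3.15 and 2.81, and the region near Pfkm 4.36 and 6.27 against 3.15 and 3.27. Antioxidant defense genes had 3 of 87 (Gpx1, Keap1 and Gsr), cell cycle genes 3 of 133 (Mki67, Aurkb and Cdt1), and purine salvage genes 2 of 63, with 1 region in Pnp2 that is also within 5000 bp of Pnp and 1 in Nt5e. The controls were above both KO libraries in each region with values given here, as the choice of the regions requires in rank.

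Of the genes named with the study's expression and chromatin results, Ltf had 1 control-only region of 3 and Pnp2 1 of 1. Cpt1a itself had 9 regions, of which 7 were kept in all 4 libraries, 1 belonged to the mirror set and 0 were control-only. Nnt and Elane had 0 control-only regions of 5 each, Ighg3 had 0 of 1, and no region lay near Cma1 or Gm8210. Peaks at Cpt1a do not check the deletion, since the position of the deleted part is not given in the sources used here.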

How the data were processed

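ATAC-Seq peak lists of 2 control and 2 KO libraries were used, grouped by the labels. The authors called peaks per library, and each deposited row gives a summit with its fold, a ratio over the background of that library, and its −log10 p and −log10 q. The submitters' processing notes name Bowtie2, MACS2 and mm10, without versions or roles. The lists hold no reads, so depth and the precision it gives are unknown, and the read-based test of the study's methods could not be fitted. Rows were ranked within a library by −log10 p (ties by fold, then position). In 253 to 492 rows per list a summit given as a chromosome position was read as such.

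The set and the gene lists were chosen with earlier results of these data known. Regions were merged and compared with Python 3.11.15, numpy 2.4.6, pandas 2.3.3 and scipy 1.17.1 (exact binomial intervals), and plotted with matplotlib 3.10.9. The steps were tested on simulated lists. Genes and promoters came from RefSeq tables of GRCm38.p6, which has the coordinates of mm10. Promoter windows covered 17273 of 21117 coding genes on 19 chromosomes (81.8%), so some nearest starts are missed, and the 62 control-only regions on chromosome 18 have no start distance. Named are the 12 regions strongest in the weaker control, 5 just inside and 5 just outside the rule, the genes with the most control-only regions, list genes with such a region, the 10 strongest coding promoters, the extremes of width and distance and genes of the study, 1 of which is not reported here. The alternatives changed the number of summits, the ranking, the intervals, the threshold, the required overlap, the chromosomes and the libraries.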

Additional observations from a re-analysis of the deposited data

How the results depend on the processing

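The number of control-only regions depended on how the lists were cut, and the percent that overlapped a gene did so far less. No other measure of where the regions lay was recomputed. Against 1631 regions, 876 were found with 50000 summits per library, 2643 with 150000, 2526 with 60000 intervals in place of summits, 4497 when a summit needed a −log10 q of 5 whatever the length of the list and 21 with no KO peak of any score. Ranking by fold, 200 bp windows around summits, a covered share of 0.5 and autosomes only stayed within 1.5 times (1409 to 2412). With each library left out in turn, 3605 to 4690 regions were found, because the rule then makes no demand on the library left out. The number without control 1 was 4690, without control 2 4485, without KO 1 4017 and without KO 2 3605.

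The percent with a weaker KO peak was 98.7 and became 99.9 with 50000 summits, 83.0 with 150000, 97.1 with ranking by fold and 98.0 under the −log10 q limit. Leaving out a library gave 94.0 to 97.3. The list of unkept peaks shrinks as more summits are kept. The percent overlapping a gene was 65.4 and moved past its interval with 50000 summits, to 67.8, and in the 21 regions without a KO peak, to 71.4. It was 65.3 to 67.2 in every other setting.

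No paired analysis was possible because the values are counts of regions with no test, to which the replicate numbers make no difference. The unknown depth limits every count, since the lists do not tell a closed region from one whose peak was missed.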
